A study of Homo sapiens with 2 samples.

Results

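The mitochondrial ribosomal protein genes are the nuclear genes that encode the protein subunits of the ribosome inside mitochondria. The family was chosen with earlier results of these data known. Its members were taken as the rows of type mRNA whose symbol starts with MRPL or MRPS and a number. Within the family they were thus chosen by name and not by any measured value. This gave 76 of the 40205 rows of the gene table, 47 with a large subunit symbol (MRPL) and 29 with a small subunit symbol (MRPS). RKO cells, an established line from a human carcinoma of the colon, had received either an siRNA against SRSF1, which encodes a splicing regulator of the SR protein family, or a control siRNA, and RNA was taken at 48 h. Each group held 1 library, and no replicate check of any difference was possible, so no p-values were calculated. The labels give neither the sequence nor the number of the siRNAs, and the cells of both groups differ only in the siRNA, as far as the labels say.

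The mitochondrial ribosome translates the few mRNAs of the mitochondrial genome, all of which encode core subunits of the respiratory chain and of ATP synthase. Its rRNAs are transcribed inside the organelle, whereas every protein subunit is made in the cytosol from a nuclear gene and imported. Some subunits have a counterpart in the bacterial ribosome. Others are found in mitochondria and have none, and some of these take up space that bacterial ribosomes fill with rRNA. Inherited defects in several of these genes cause disorders of oxidative phosphorylation.

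The promoters were searched for 3 short words, forms of sites bound by transcription factors of ribosomal or mitochondrial genes. RefSeq promoter windows on GRCh38.p14, from 250 bases before to 50 bases after the start of the gene, were matched for 68 of the 76 genes, and 21 of the 68 held at least 1 of the words. A word with the core ATGG, a form of the site bound by the transcription factor YY1 that stands in capitals in the stretches below, was held on either strand by 10 of 68 member windows (14.7%), against 217 of 15843 windows of protein-coding genes (1.37%). Of its 10 occurrences, 9 lay on the gene's own strand and after the start, at most 36 bases from it. In these 9, the ATG inside the word was an annotated start codon in GENCODE 29. The stretches of 30 bases around the word are printed to show the word and its place at the start codon, 5′ to 3′ on the strand that carries the word:
MRPL36 (chr5:1799855-1799884, plus strand): gccaggaaggAAGATGGCGGCggggggggg
MRPL38 (chr17:75904858-75904887, minus strand): gccggagggAAGATGGCGGCgccctggtgg
MRPL46 (chr15:88467360-88467389, minus strand): ggagaacgaAAGATGGCGGCgcccgtaagg
MRPS10 (chr6:42217832-42217861, minus strand): gggaccggcAAGATGGCGGCgcggacagcg
MRPS18A (chr6:43687762-43687791, minus strand): aggtttttgAAGATGGCGGCcctcaaggct
MRPS30 (chr5:44808951-44808980, plus strand): tcgcgggcaAAGATGGCGGCggccaggtgt
MRPS24 (chr7:43869478-43869507, minus strand): gcttggcccAAGATGGCGGCctccgtgtgc
MRPL50 (chr9:101398575-101398604, minus strand): atctcatcgAAGATGGCGGCgcgatctgtg
MRPS18B (chr6:30617854-30617883, plus strand): gcgtacgtcAAGATGGCGGCgtctgtatta
MRPL22 (chr5:154941093-154941122, plus strand): gtagcgggagggcgaAAGATGGCGGCggca

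The word CCGGAAGT, bound by factors of the ETS family such as GABPA, was held on either strand by 11 member windows (16.2%), against 981 windows of protein-coding genes (6.19%). Only MRPL38 held both words, which did not overlap there. MRPL27 and MRPS22 each held the ETS word at more than 1 place. Of the 13 ETS words, all but 1 had their first base before the start, at positions -209 to -6 relative to it. The words of MRPL16 (-7) and MRPL52 (-6) reach over the start. The 7 that start at position -39 or nearer are printed with their surroundings, on the strand that carries the ETS word, which stands in capitals:
MRPL47 (chr3:179604659-179604688, minus strand): ggcttgagacgCCGGAAGTgacgctatcgt
MRPL3 (chr3:131502985-131503014, minus strand): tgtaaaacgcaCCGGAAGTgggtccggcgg
MRPS34 (chr16:1773136-1773165, plus strand): cagcggtccggCCGGAAGTcaccggaagag
MRPL27 (chr17:50373174-50373203, minus strand): acttttcgagaCCGGAAGTgagtgatcgaa
MRPL16 (chr11:59810767-59810796, plus strand): gctcagtggggCCGGAAGTtgtgttcactc
MRPL52 (chr14:22829870-22829899, minus strand): agccggggtagCCGGAAGTaggcgtggcct
MRPS22 (chr3:139343987-139344016, minus strand): agccacttgcgCCGGAAGTggttgggaggg

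A palindromic form of the site of NRF1, a regulator of nuclear genes for mitochondria, was in 1 member window (1.47%), against 278 windows of protein-coding genes (1.75%). That window belongs to MRPL17, and the word is in capitals:
MRPL17 (chr11:6683402-6683431, minus strand): aggctctgatGCGCATGCGCaaacacgttc

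Each difference is the log2(FPKM + 1) value after SRSF1 siRNA less that after control siRNA. Its median was -0.25 in the 10 genes with the YY1 word and -0.27 in the others. For the ETS word these medians were -0.22 and -0.27, and MRPL17, the gene with the NRF1 word, was at -0.41. A match to a word says nothing of whether the factor binds there in RKO cells.

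**Figure D1:**
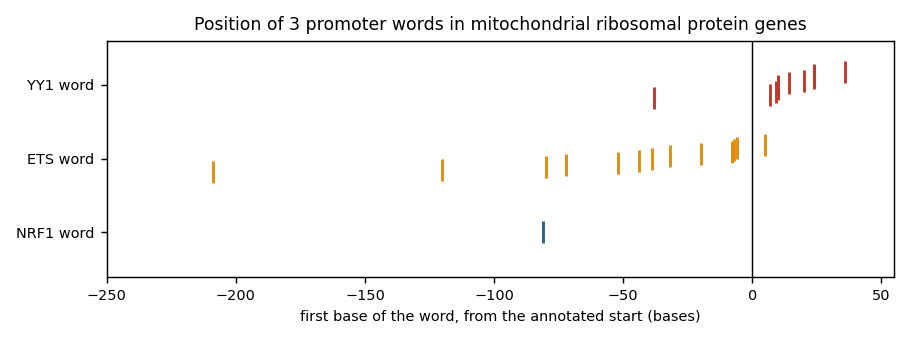
Position of the first base of each promoter word (horizontal axis, bases from the annotated start of the gene; each tick is 1 occurrence) for the YY1, ETS and NRF1 words in 68 windows of mitochondrial ribosomal protein genes. The YY1 words gather just after the start, 9 of 10 of them, whereas all but 1 of 13 ETS words have their first base before it.

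The member genes are spread over the genome and often lie beside another gene. In GENCODE 29 on GRCh38 they lie on 21 chromosomes, with at most 8 on any one of them. For 16 of 76 (21.1%), another protein-coding gene starts on the opposite strand within 1000 bases upstream, against 1472 of 19922 protein-coding genes (7.39%). The pair MRPL46 and MRPS11 joins a large and a small subunit gene, whose starts lie 34 bases apart. Exons of another annotated gene overlap those of 41 members, on the same strand for 16 and on the opposite strand for 29. Such overlaps were counted for the members only, so whether they are more common here than in other genes was not tested. The strand setting of the authors' counting is not given in the sources used here, so the values of these genes may hold reads of their neighbours.

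Both libraries were sequenced to similar depth. The SRSF1 siRNA library held 61879680 reads and the control library 64651910, of which 75.9% and 70.4% mapped. FPKM, a fragment count scaled to gene length and library size, is a level per length and is meant for comparison between genes. The gene lengths behind the values are not given and can differ from the annotated transcripts. For MRPL19, the smallest length that fits its values was 7827 bases, against 3479 in its longest annotated transcript. The order of levels between genes is uncertain to that degree. SRSF1 itself was at 32.7 FPKM after SRSF1 siRNA and at 103 FPKM after control siRNA, or 0.317 times the control level. The epithelial genes KRT18, KRT8 and EPCAM and the intestinal factor CDX2 were detected in both libraries, whereas the epithelial gene CDH1 and the intestinal gene VIL1 were listed at 0. Of 5 markers of leukocytes, endothelium, fibroblasts and red cells, 4 were listed at 0 in both and COL1A1 was below 0.02 FPKM.

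All 76 members were expressed, with a mean FPKM of at least 1. After SRSF1 siRNA their levels ran from 6.77 FPKM (MRPL23) to 127 FPKM (MRPL16), with a median of 29.5 FPKM, and after control siRNA from 8.26 FPKM (MRPL54) to 156.3 FPKM (MRPL16), with a median of 38.9 FPKM. The highest and the lowest level thus differed 18.7-fold in the SRSF1 siRNA library and 18.9-fold in the control library. The order of the genes was nearly the same in both, with a Spearman's rho of 0.98 across the 76 genes, which share the 2 libraries and are not replicates.

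The 3 genes of each subunit with the highest control level were the following, and other large subunit genes lay above MRPS17. MRPL16, a large subunit protein with a bacterial counterpart, had 127 FPKM after SRSF1 siRNA and 156.3 FPKM after control siRNA. MRPS15, of the small subunit, had 125 FPKM after SRSF1 siRNA and 153 FPKM after control siRNA. MRPS34, a small subunit protein that bacteria lack, had 104 FPKM after SRSF1 siRNA and 135 FPKM after control siRNA. The others were MRPL13 (114 and 133 FPKM), MRPL50 (121 and 130 FPKM) and MRPS17 (76.2 and 102 FPKM), with SRSF1 siRNA given before control siRNA. All 6 were lower in the SRSF1 siRNA library, where 59.9% of protein-coding genes were. They were chosen by a high control level, which itself favours a lower value in the other library, so no conclusion is drawn from this count.

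**Figure D2:**
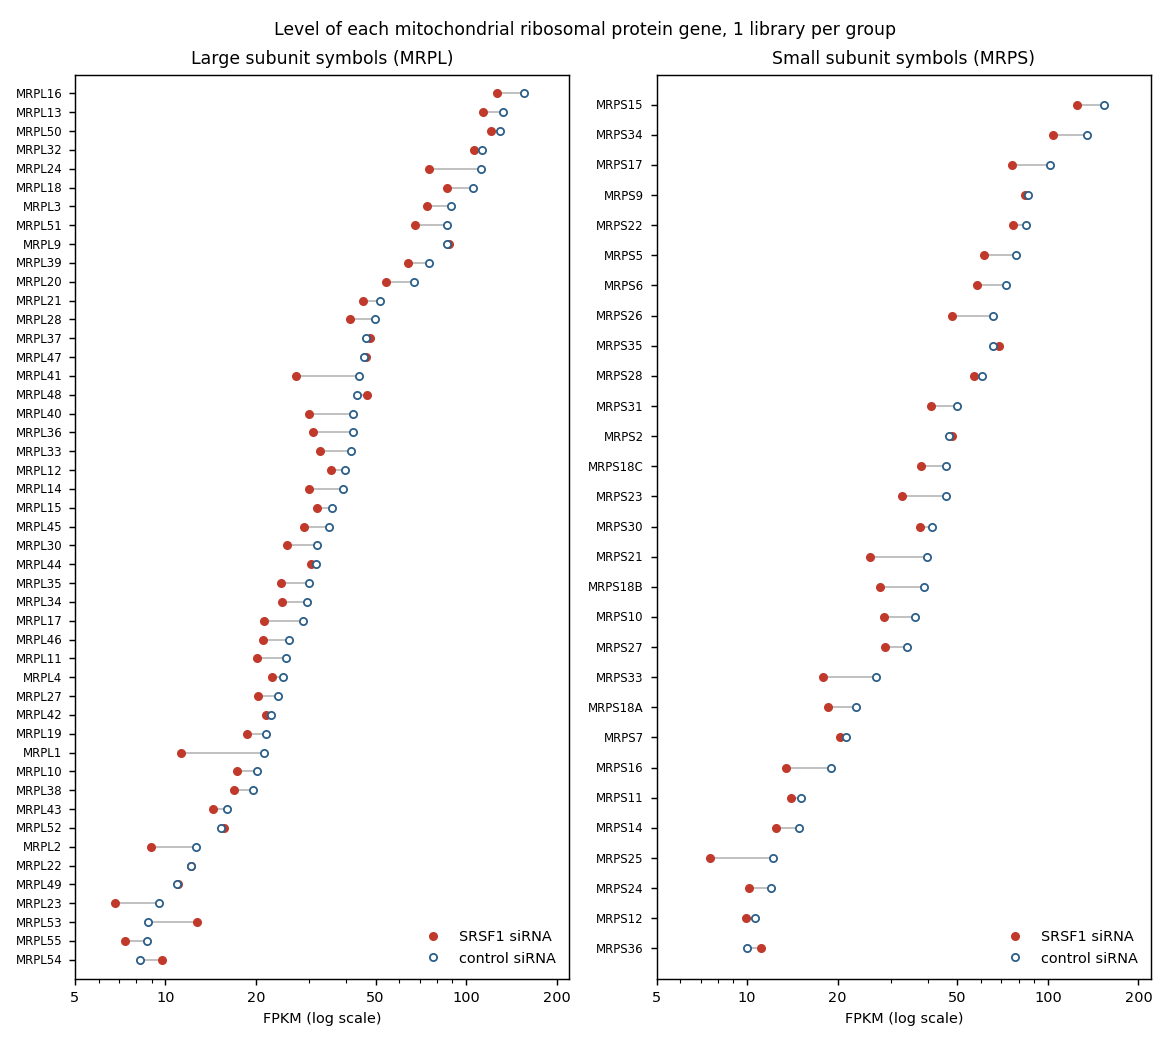
FPKM (horizontal axis, log scale) of each large subunit gene (left) and small subunit gene (right) in the SRSF1 siRNA library (filled points) and the control siRNA library (open points), in order of the control level; each point is 1 library. Most filled points lie left of the open ones, with MRPL53 the widest exception.

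Transcripts of the mitochondrial ribosomal proteins were lower as a group in the SRSF1 siRNA library. The difference was below 0 for 64 of 76 genes (84.2%), where it was for 59.9% of the 10064 protein-coding genes whose mean FPKM reached 1. A share below 0 near that of the members was not particular to them. It was 81.6% in cytosolic ribosomal protein genes and 77.6% in nuclear genes for oxidative phosphorylation. In the lists of other mitochondrial genes described further below, it ran from 57.1% (other subunits) to 82.4% (aminoacyl-tRNA synthetases). In such bulk samples, fewer cells of a kind and less RNA per cell cannot be told apart. The median difference of the members was -0.25, or 0.840 times the control level, against -0.05 over the protein-coding genes. A limit of 0.8 times the control level, on the scale of FPKM + 1, was reached by 22 of the 76 (28.9%), where 15.1% of protein-coding genes reached it. Higher by the same factor, that is with the control level at most 0.8 times that after SRSF1 siRNA, was 1 (MRPL53), where 5.46% of protein-coding genes were. At the stricter limit of 1.5-fold, 4 of 76 (5.26%) were lower, near the 3.23% of protein-coding genes, and none was higher, where 0.755% were.

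Counting error was small for most members. The fragment counts recovered from the FPKM values ran from 84 to 3475 per gene in the SRSF1 siRNA library and from 97 to 3913 in the control library. The 95% counting interval of the ratio lay below 1 for 55 of 76 members, where it did for 36% of protein-coding genes. It lay above 1 for 1 member, where it did for 20.8%. Among 1787 other protein-coding genes with the transcript length, FPKM and GC content of most members, these shares were 44.2% and 18.9%. Summed over all members, FPKM came to 3047 after SRSF1 siRNA and to 3612 after control siRNA, a ratio of 0.843, and the summed counts relative to the library totals had the same ratio (0.836 to 0.850). These intervals cover counting error only and not the spread between cultures.

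**Figure D3:**
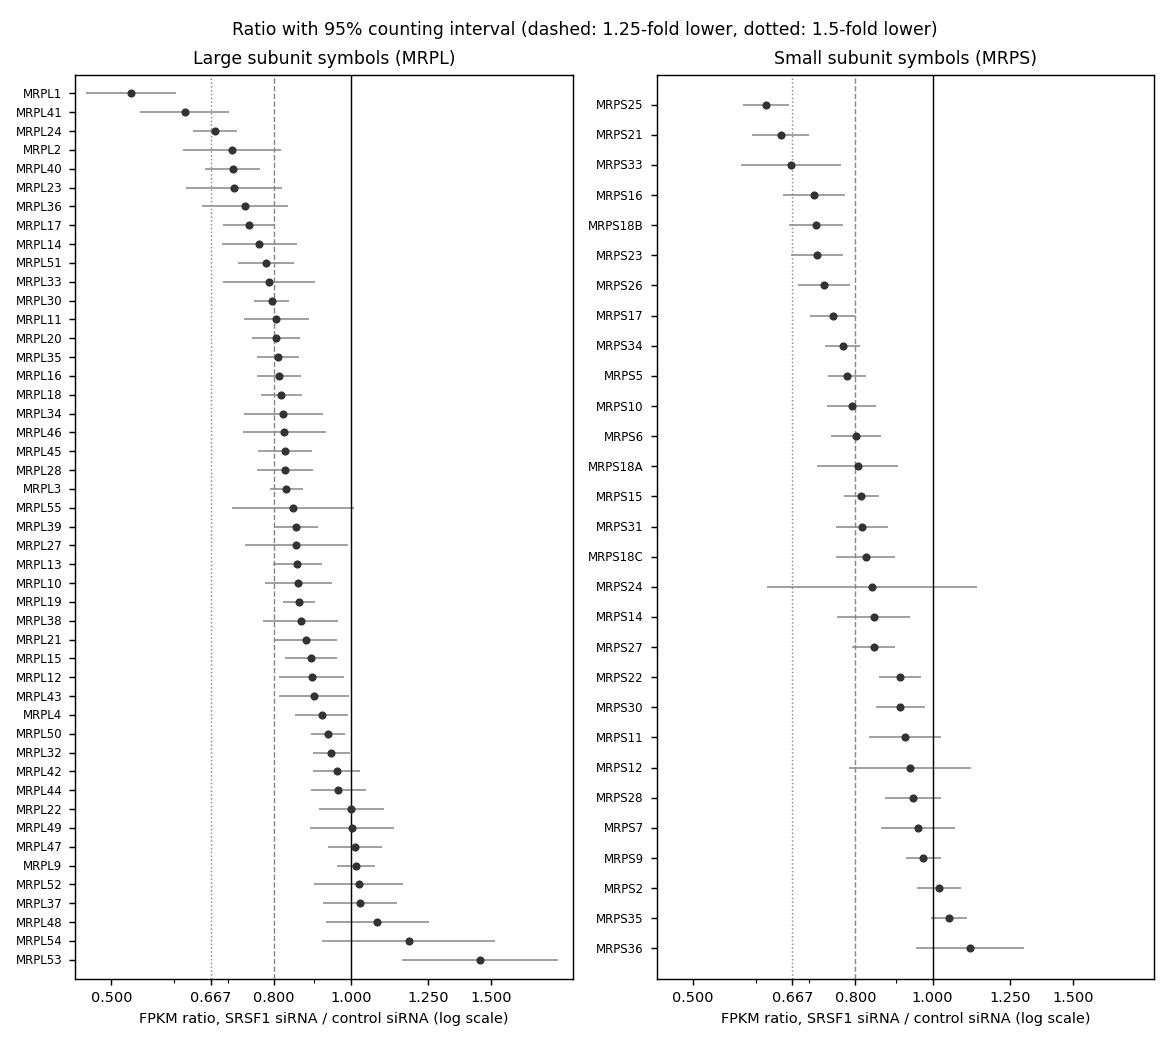
Ratio of FPKM in the SRSF1 siRNA library to that in the control siRNA library (horizontal axis, log scale) for each large subunit gene (left) and small subunit gene (right), with 95% counting intervals as bars; the dashed line marks 0.8 times and the dotted line 1.5-fold lower, both as plain FPKM ratios. Of 76 intervals, 55 lie wholly below 1 and 1, that of MRPL53, wholly above.

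Among the large subunit genes, 38 of 47 (80.9%) were below their control level, and the median difference was -0.22. Below it were 59.9% of protein-coding genes, and 67.3% of other genes with transcripts as long as those of most members. At or under 0.8 times were 11 of the 47 (23.4%), against 15.1% and 19.3% of these. MRPL1, a protein of the stalk through which used tRNA leaves the ribosome, fell to 11.2 FPKM after SRSF1 siRNA, against 21.2 FPKM after control siRNA, which is 0.529 times (0.465 to 0.602, on 364 and 667 fragments). In GENCODE 29 on GRCh38 it lies on the plus strand of chromosome 4, from 77862520 to 77952790, and no exon of another gene overlaps it. MRPL41, a subunit with no bacterial counterpart on chromosome 9 (137551199 to 137552555, plus strand), fell to 27.2 FPKM after SRSF1 siRNA, against 44.0 FPKM after control siRNA (0.618 times, 0.543 to 0.703). These were the only large subunit genes past the 1.5-fold limit.

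Just short of that limit was MRPL24, at 75.3 FPKM after SRSF1 siRNA and 112 FPKM after control siRNA (0.675 times, 0.634 to 0.719), or -0.56 as a difference in log2(FPKM + 1). MRPL40, MRPL2 and MRPL23 were at 0.710, 0.709 and 0.713 times their control levels. MRPL12, the protein of the flexible stalk that recruits translation factors, was at 35.4 FPKM after SRSF1 siRNA and 39.6 FPKM after control siRNA (0.893 times, 0.813 to 0.981). MRPL3 and MRPL44, both mutated in inherited cardiomyopathy, were at 0.830 times (0.791 to 0.870) and 0.965 times (0.892 to 1.04).

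At the upper end of the large subunit, MRPL53 had 12.7 FPKM after SRSF1 siRNA and 8.78 FPKM after control siRNA, 1.45 times on 199 and 133 fragments (1.16 to 1.82). Exons of CCDC142 overlap MRPL53 on the same strand, so its value is uncertain. MRPL54 was at 1.18 times and MRPL48 at 1.08 times, and both intervals include 1 (0.921 to 1.52 and 0.931 to 1.253). All 3 encode subunits with no bacterial counterpart.

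Among the small subunit genes, 26 of 29 (89.7%) were below their control level, and the median difference was -0.29. Below it were 59.9% of protein-coding genes, and 67.3% of other genes with transcripts as long as those of most members. At or under 0.8 times were 11 of the 29 (37.9%), against 15.1% and 19.3% of these. MRPS25, a subunit with no bacterial counterpart, fell to 7.52 FPKM after SRSF1 siRNA, against 12.2 FPKM after control siRNA (0.618 times, 0.578 to 0.660, on 1458 and 2290 fragments). On chromosome 3 it spans 15042460 to 15065335 (minus strand), where exons of NR2C2 overlap it on the other strand. MRPS21, which has a bacterial counterpart, fell to 25.6 FPKM after SRSF1 siRNA, against 39.7 FPKM after control siRNA (0.644 times, 0.593 to 0.700), and no exon overlaps it on chromosome 1 (150293720 to 150308979, plus strand). MRPS33 was just short of the 1.5-fold limit on the log2(FPKM + 1) scale, with a difference of -0.56, and its plain FPKM ratio was 0.664 (0.574 to 0.768).

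MRPS16, MRPS18B and MRPS23 were at 0.710, 0.714 and 0.716 times. The highest small subunit genes relative to control were MRPS36 at 1.12 times (0.955 to 1.30), MRPS35 at 1.05 times (0.996 to 1.10) and MRPS2 at 1.02 times (0.955 to 1.09). MRPS36 carries a small subunit symbol but is also known as a component of the 2-oxoglutarate dehydrogenase complex. MRPS12, the counterpart of the bacterial decoding protein S12, was at 0.937 times (0.786 to 1.12), and its exons overlap SARS2 on the opposite strand.

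The genes MRPS18A, MRPS18B and MRPS18C are paralogs, of which only MRPS18C is counted below among the genes with a bacterial counterpart and MRPS18A is placed in the large subunit in structures of the ribosome. MRPS18A was at 18.5 FPKM after SRSF1 siRNA and 23.0 FPKM after control siRNA (0.805 times, 0.716 to 0.905). MRPS18B was at 27.6 and 38.7 FPKM (0.714 times, 0.660 to 0.772), and MRPS18C at 37.8 and 45.8 FPKM (0.824 times, 0.757 to 0.897), again with SRSF1 siRNA before control siRNA. All 3 were lower, and the interval of MRPS18B overlaps those of both paralogs. MRPS30, also placed in the large subunit, was at 0.911 times (0.848 to 0.978).

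The medians of the subunits lay close to each other, and the small subunit had the larger share of genes under the limit. The median of the MRPL genes exceeded that of the MRPS genes by 0.07 on the log2(FPKM + 1) scale. At or under 0.8 times were 11 of 47 MRPL genes (23.4%) and 11 of 29 MRPS genes (37.9%), a difference that was not tested. The share was 15.1% over protein-coding genes and 19.3% over other genes with transcripts as long as those of most members. The middle 50% of MRPL differences ran from -0.31 to -0.09 and that of MRPS differences from -0.41 to -0.11. MRPL genes made up 60.6% of the summed member FPKM after SRSF1 siRNA and 59.99% after control siRNA. The summed FPKM was 0.852 times control for MRPL and 0.830 times for MRPS. With MRPS30 and MRPS18A counted in the large subunit and MRPS36 left out, the median difference stayed at -0.22 for the large subunit and was -0.29 for the small.

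Members with a bacterial counterpart moved more evenly than those without. Of 46 genes with a counterpart, 42 were below their control level, with a median of -0.27 and an interquartile range of 0.17. Of 30 without one, 22 were below it, with a median of -0.21 and an interquartile range of 0.36. These are 91.3% and 73.3%, against 59.9% of protein-coding genes and 67.3% of other genes with transcripts as long as those of most members. At or under 0.8 times were 13 of 46 (28.3%) and 9 of 30 (30%), against 15.1% and 19.3% of the same 2 sets of other genes. The difference in spread was not tested.

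Transcript length moved with the differences between these libraries, and the members have short transcripts. Their longest annotated transcripts had a median of 1722 bases, against 3732 over the protein-coding genes. In the 991 other protein-coding genes with the shortest transcripts the median difference was -0.15, and in the 991 with the longest it was 0.03. Among 4842 other protein-coding genes whose transcripts were as long as those of most members (1009 to 3831 bases, the 10th to 90th percentile of the members), the median was -0.10. Of these, 67.3% were below 0, 19.3% were at or under 0.8 times and 4.54% at least 1.5-fold lower, while 4.44% were higher by the factor of the 0.8 limit and 0.599% at least 1.5-fold higher. Their counting intervals lay below 1 for 40.9% and above 1 for 14%. Among the 1787 of them that also had the FPKM and GC content of most members, the median was -0.08 and 16.1% were at or under 0.8 times. With the trend in length and GC content removed, the median of the members was -0.20 and that of the protein-coding genes -0.06. At or under 0.8 times were then 15 members (19.7%) and 14.4% of protein-coding genes, a smaller gap than the 28.9% and 15.1% in the values as deposited. The gap between the 2 medians was thus -0.20 in the values as deposited and -0.14 with the trend removed. Within the members, Spearman's rho between the difference and length was 0.27 over 47 MRPL genes and -0.26 over 29 MRPS genes, both weak.

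**Figure D4:**
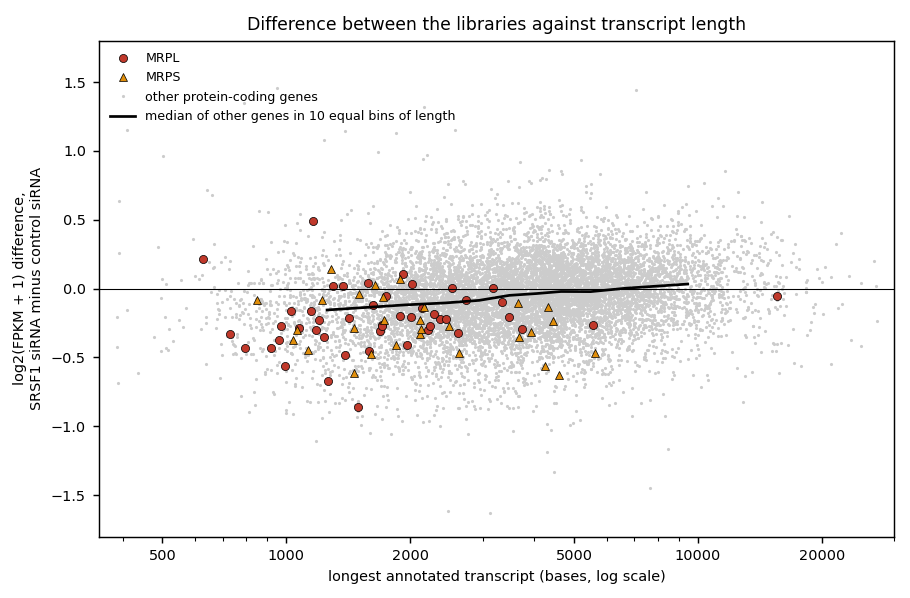
Difference in log2(FPKM + 1) between SRSF1 siRNA and control siRNA (vertical axis, positive where SRSF1 siRNA is higher), against the longest annotated transcript (horizontal axis, bases, log scale) for MRPL genes (circles), MRPS genes (triangles) and other protein-coding genes (grey, 4 of 9905 lie outside the axes). The black line joins the medians of the other genes in 10 bins of length and rises with length, and most members lie below it.

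Other ribosomal and mitochondrial genes were set beside the members. The cytosolic ribosomal protein genes build the ribosome of the cytosol and have many pseudogenes that can share their reads. They had a median of -0.12 over 76 expressed genes, and 2 of them (2.63%) were at or under 0.8 times. On the higher side, 1 was past 1.5-fold, with a difference of 1.44. Their counting intervals lay below 1 for 58 (76.3%) and above 1 for 9 (11.8%), against 72.4% and 1.32% of the members. Nuclear genes for oxidative phosphorylation, among them those of ATP synthase, had a median of -0.15 over 76 expressed genes, with 15 (19.7%) at or under 0.8 times. That share was 15.1% over protein-coding genes. It was 19.3% over other genes with transcripts as long as those of most members, near the 19.7%. Mitochondrial and cytosolic ribosomal protein genes have transcripts of similar length, with medians of 1722 and 1842 bases, but cytosolic ones were far more abundant, with medians of 706 FPKM after SRSF1 siRNA and 778 FPKM after control siRNA. None of these differences between families was tested.

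The mitochondrial rRNAs, the RNA part of the same ribosome, did not follow the protein genes together. RNR2, the large subunit rRNA, was listed at 6449 FPKM after SRSF1 siRNA and 5472 FPKM after control siRNA (1.18 times, 1.17 to 1.19). RNR1, the small subunit rRNA, was listed at 1705 FPKM after SRSF1 siRNA and 1794 FPKM after control siRNA (0.9501 times, 0.931 to 0.969). Chromosome M as a whole took 8.39% of mapped reads after SRSF1 siRNA and 6.60% after control siRNA.

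Subunit genes whose symbols do not start with MRPL or MRPS had a median of -0.29 over 7 genes. ICT1, a release factor built into the large subunit, was at 21.4 FPKM after SRSF1 siRNA and 33.2 FPKM after control siRNA (0.646 times, 0.545 to 0.764). AURKAIP1 and CHCHD1, both of the small subunit, were at 0.753 and 0.755 times. DAP3, a GTP-binding subunit, and MRP63 were at 1.01 and 1.03 times, and PTCD3, an RNA-binding repeat protein of the small subunit, was at 1.21 times (1.16 to 1.26). At or under 0.8 times were 3 of the 7 (42.9%), against 15.1% of protein-coding genes, and none was higher by that factor.

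The factors that run the translation cycle had a median of -0.31 over 14 genes, and 7 of them (50%) were at or under 0.8 times, where 15.1% of protein-coding genes were, and none was higher by that factor, where 5.46% were. GFM2, the elongation factor G paralog that splits ribosomes for recycling, fell to 17.6 FPKM after SRSF1 siRNA, against 31.4 FPKM after control siRNA (0.561 times, 0.525 to 0.599). Its partner in recycling, MRRF, was at 0.792 times (0.738 to 0.850). The initiation factors MTIF3 and MTIF2 were at 0.720 times (0.673 to 0.770) and 0.791 times (0.727 to 0.859). The elongation factors TSFM, GFM1 and TUFM were at 0.783, 0.917 and 0.940 times. Release factor MTRF1L was at 1.20 times (1.13 to 1.28) and its relative C12orf65 at 1.11 times.

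Genes that assemble the mitochondrial ribosome or modify its rRNA had a median of -0.14 over 27 genes, with 8 (29.6%) at or under 0.8 times, against 15.1% of protein-coding genes, and none higher by that factor, against 5.46%. Past 1.5-fold were MRM1, a methyltransferase of the large rRNA, at 0.869 FPKM after SRSF1 siRNA and 2.43 FPKM after control siRNA (0.358 times, 0.240 to 0.524), and MTERFD2, which acts with the methyltransferase NSUN4, at 0.528 times (0.482 to 0.579). NSUN4 itself was at 1.05 times. The highest of the assembly genes were MPV17L2 at 1.21 times (0.943 to 1.56), GTPBP10 at 1.09 times (1.02 to 1.17) and METTL17 at 1.08 times (0.972 to 1.21).

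Genes of mitochondrial transcription and RNA processing had a median of -0.08 over 20 genes, with 3 (15%) at or under 0.8 times, near the 15.1% of protein-coding genes, none higher by that factor and none past 1.5-fold. FASTKD1, an RNA-binding protein, was at 0.673 times (0.627 to 0.722) and SLIRP, the partner of LRPPRC in keeping mitochondrial mRNAs stable, at 0.741 times (0.697 to 0.789). The transcription factor TFAM was at 0.981 times (0.938 to 1.03). SUPV3L1 and TBRG4 were highest, at 1.01 and 1.03 times.

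**Figure D5:**
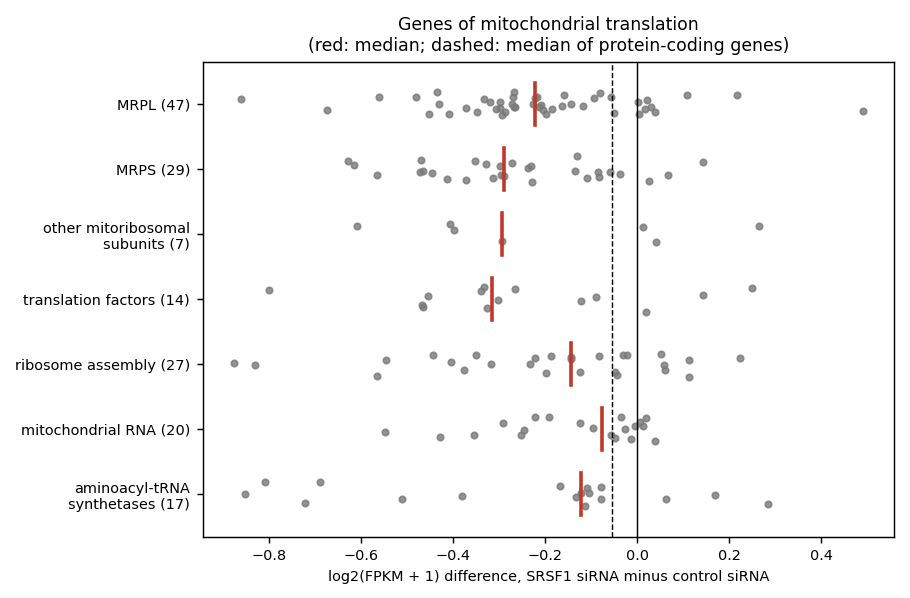
Difference in log2(FPKM + 1) between SRSF1 siRNA and control siRNA (horizontal axis, positive where SRSF1 siRNA is higher) of each gene (grey points) in groups of mitochondrial translation genes (rows, number of genes in brackets), with the median of each group in red and that of protein-coding genes as a dashed line. The medians of MRPL, MRPS, the other subunits and the translation factors lie furthest left, between -0.22 and -0.31.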

How the data were processed

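RNA of RKO cells was sequenced after SRSF1 siRNA or control siRNA, 1 library each, and groups came from the sample labels. The authors deposited 1 FPKM value per gene and library, and mapping counts per library. Per the submitters' processing notes, Bowtie 0.12.2 and genome build hg19 were used. The counting tool, annotation, strand setting and filters are not given in these sources.

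Each gene's log2(FPKM + 1) in the control library was subtracted from that in the SRSF1 siRNA library, over genes whose mean FPKM reached 1. It understates the change of low genes. Folds of named genes are plain FPKM ratios, and "fell" or "rose" marks a log2(FPKM + 1) difference of at least 1.5-fold. Library totals of 23852089 fragments (SRSF1 siRNA) and 23138519 (control siRNA) made the FPKM whole counts for 99.9% of the 16235 genes above 0 in both, within a relative tolerance of 2e-12. These are the smallest counts that give the values, so intervals can be too wide. Intervals are exact Clopper-Pearson 95% intervals, conditional on the sum of both counts. PCR copies are not independent molecules.

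Lengths, GC content and overlaps are those of GENCODE 29 on GRCh38 and promoter windows those of RefSeq on GRCh38.p14, while the files use hg19. They were joined by symbol. A length was found for 99.2% of expressed protein-coding genes and for all 76 members. The length and GC trend was removed with lowess (span 0.3, statsmodels 0.14.6), and other steps used scipy 1.17.1 and pandas 2.3.3. Recovery of the library totals and counts and the log2(FPKM + 1) difference were tested on simulated data, and the other steps were not. The members, lists and comparison families were chosen with earlier results of these data known. Named were the members with the lowest and highest differences and the highest levels of each subunit, those past 1.5-fold, a fixed handful (MRPS18 paralogs, MRPS30, MRPS36, MRPL12), and the extremes of every other list. MRPL3, MRPL44, MRPS12 and the middle members of the other lists were named after their values were seen. A gene of the synthetase list is not reported here.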

Additional observations from a re-analysis of the deposited data

How the results depend on the processing

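The median difference of the members stayed between -0.29 and -0.20 under every alternative tried: a pseudocount of 0.1, no filter, a mean FPKM of at least 5, columns rescaled to the same sum, quantile normalization, centring on the protein-coding median, removal of the length and GC trend, the 7 other subunit genes added and, chosen after seeing the data, plain ratios and the 35 members with no exon overlap. The members at or under 0.8 times numbered 15 to 24, against 22, and the share of protein-coding genes there ran between 10.1% (quantile normalization) and 18.9% (plain ratios), against 15.1%. The 4 genes at least 1.5-fold lower became 2 under quantile normalization, 2 with centring, and 5 with a pseudocount of 0.1 or plain ratios. With the length and GC trend removed they numbered 3, and the set changed. MRPL1 (-0.79) and MRPS25 (-0.67) stayed past the limit and MRPS33 (-0.60) joined them. MRPL41 and MRPS21 (both -0.53) were then short of it. With the length and GC trend removed, 2 genes were higher by the factor of the 0.8 limit and 1 at least 1.5-fold higher, against 1 and 0. The causes were not tested. Of the named members, MRPL12 was then at -0.02 (-0.16 as deposited), MRPL16 at -0.20 (-0.30), MRPS34 at -0.24 (-0.37), MRPS18A at -0.17 (-0.30), MRPL24 at -0.44 (-0.56) and MRPL40 at -0.36 (-0.48). Further below 0 than as deposited were MRPS25 at -0.67 (-0.63), MRPS33 at -0.60 (-0.56), MRPS23 at -0.52 (-0.47), MRPS30 at -0.19 (-0.13) and MRPL50 at -0.11 (-0.09). On the higher side, MRPS2 was at 0.13 (0.03), MRPS35 at 0.12 (0.07), MRPS36 at 0.22 (0.14) and MRPL54 at 0.36 (0.22). Quantile normalization gave the protein-coding genes a median of 0.02. No median of the members and no difference past 1.5-fold changed direction. No paired analysis was possible because each group had 1 library, and leaving out a library was not possible for the same reason. Genes with few recovered fragments had wide intervals: that of MRPS24, on 84 and 97 fragments, was 0.620 to 1.14. These counts are the smallest that fit, and the true ones may be a multiple of them. The gene length that goes with them was 348 bases, against 1727 in the longest annotated transcript. Low depth and the recovery of counts thus cannot be told apart for this gene.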

Other observations

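The mitochondrial aminoacyl-tRNA synthetases, which charge the tRNAs that this ribosome uses, had a median of -0.12 over 17 genes. At or under 0.8 times on the scale of FPKM + 1 were 6 of them (35.3%), against 15.1% of protein-coding genes. Among those that fell by at least 1.5-fold, TARS2 was at 8.12 FPKM after SRSF1 siRNA and 15.5 FPKM after control siRNA (0.525 times, 0.472 to 0.583), and IARS2 at 42.8 and 71.2 FPKM (0.601 times, 0.576 to 0.626). SARS2, also among the synthetase genes past that limit, was at 0.421 times (0.305 to 0.575), on only 59 and 136 fragments. The exons of SARS2 overlap those of MRPS12, which was at 0.937 times. WARS2 was at 1.27 times (1.02 to 1.57) and MARS2 at 1.14 times.

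Genes that start next to a member on the opposite strand did not all take its direction. MRPL36 and its neighbour NDUFS6, a subunit of respiratory complex I, were at 0.736 and 0.739 times. MRPL47 was at 1.01 times and its neighbour NDUFB5, also of complex I, at 0.737 times (0.655 to 0.828). MRPL18 and its neighbour TCP1, a chaperonin subunit, were at 0.818 and 0.899 times, while MRPL50 and ZNF189 were at 0.936 and 1.15 times. The last pairs were named after their values were seen.

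The table also listed 104 pseudogene rows of these families, of which 87 were at 0 in both libraries and 3 had a mean FPKM of at least 1. MRPL35P3 was at 4.99 FPKM after SRSF1 siRNA and 2.80 FPKM after control siRNA (1.78 times, 0.843 to 3.94, on 22 and 12 fragments). MRPS31P5 was at 1.99 and 2.73 FPKM (0.729 times, 0.592 to 0.895), and MRPL42P5 at 1.19 and 0.842 FPKM (1.42 times, 0.664 to 3.12). Reads could be split between such rows and the member they copy.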
